A study of Mus musculus with 5 samples.

Results

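The genes of MHC class I and class II antigen presentation were followed in mouse CD8 T cells activated in culture with and without interleukin 21 (IL-21). They were taken by gene name, as all probe sets annotated to B2m, H2-K1, H2-D1, Tap1, Tap2, Tapbp, H2-Aa, H2-Ab1, H2-Eb1 or Cd74, alone or jointly with another gene. These are 10 of the 8949 genes named on the array, 6 of class I and 4 of class II. They are read by 20 of the 12422 probe sets that were not array controls, 16 for class I and 4 for class II. The cells came from OT-1 mice, C57BL/6 animals aged 6 to 8 weeks with a transgenic T cell receptor that recognises an ovalbumin peptide on H-2Kb. CD8+ T cells with low CD44, the naive phenotype, were obtained from lymph nodes by negative enrichment, which removes other cells and sorts none. Latex microspheres carrying peptide-loaded H-2Kb and the costimulatory ligand B7-1 stimulated the cells, and every culture contained human rIL-2. The groups were 48 h without IL-21 (2 arrays), 48 h with murine IL-21 (2 arrays) and 72 h with murine IL-21 (1 array). Each title names a biological replicate, but separate cultures, separate mice or pooling are not stated. A p-value here therefore reflects only how far these samples spread, which may be technical. Since 72 h without IL-21 was not analysed here, time in culture and length of exposure to IL-21 cannot be told apart at 72 h.

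MHC class I molecules display peptides made inside the cell to CD8 T cells. The heavy chains encoded by H2-K1 and H2-D1 pair with beta-2 microglobulin, the product of B2m. Peptides reach them in the endoplasmic reticulum through the transporter built from TAP1 and TAP2, to which tapasin, the product of Tapbp, tethers the empty heavy chain. MHC class II molecules display peptides from endosomes to CD4 T cells and are known from B cells, dendritic cells and macrophages. They consist of an alpha and a beta chain, encoded by H2-Aa and H2-Ab1 for I-A and by H2-Ea and H2-Eb1 for I-E, and are assembled on the invariant chain encoded by Cd74. C57BL/6 mice make no I-E at the cell surface because their H2-Ea gene is defective. Mouse T cells, unlike activated human T cells, are not generally known to make class II molecules. Interferon gamma is a known inducer of both pathways, acting on class I and Tap genes through interferon regulatory factors and on class II genes through the coactivator CIITA. H-2Kb is the product of H2-K1, and on the microspheres it was present as protein, which the arrays do not read.

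B2m lies on chromosome 2 (GRCm38.p6, 122147687 to 122153082), and all other members but Cd74 lie on chromosome 17 within the MHC region, from Tapbp (33919478 to 33929290) and H2-K1 (33996012 to 34000619) to H2-D1 (35263094 to 35267497). Between these lie Tap1 (34187556 to 34197225), Tap2 (34204479 to 34216321), H2-Ab1 (34263227 to 34269418), H2-Aa (34282744 to 34287823) and H2-Eb1 (34305867 to 34316674). Upstream windows of 250 bases before the annotated start were found for 7 of the 10 genes in the RefSeq promoter table of this build, and Tap2, H2-Ab1 and Cd74 were without one. For H2-K1 the table holds 2 overlapping windows on the minus strand, of which the outer one (34000348 to 34000597) was used. It lies inside the gene span given above, since the table's start differs from the end of that span. Those of H2-D1, B2m and Tap1 are shown because they lie upstream of a heavy chain, of its partner and of a chain of the transporter, roles that are followed separately in the values. Each is on the plus strand and reads 5′ to 3′ up to the base before the start. Capitals mark matches, on either strand, to the core of the X2 or CRE box (TGACG, reverse CGTCA), the Y box or inverted CCAAT box (ATTGG, reverse CCAAT) and the core of an interferon regulatory factor site (AANNGAAA).
H2-D1, chr17:35262844-35263093: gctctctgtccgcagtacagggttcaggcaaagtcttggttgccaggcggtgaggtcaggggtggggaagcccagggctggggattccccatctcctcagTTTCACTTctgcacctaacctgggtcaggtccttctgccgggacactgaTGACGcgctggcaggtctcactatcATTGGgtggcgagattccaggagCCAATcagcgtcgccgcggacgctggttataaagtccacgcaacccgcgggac
B2m, chr2:122147437-122147686: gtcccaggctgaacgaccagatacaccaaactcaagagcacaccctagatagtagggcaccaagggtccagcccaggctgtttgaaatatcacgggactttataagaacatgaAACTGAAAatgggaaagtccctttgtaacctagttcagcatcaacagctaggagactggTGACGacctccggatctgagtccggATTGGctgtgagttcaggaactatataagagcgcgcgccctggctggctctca
Tap1, chr17:34187306-34187555: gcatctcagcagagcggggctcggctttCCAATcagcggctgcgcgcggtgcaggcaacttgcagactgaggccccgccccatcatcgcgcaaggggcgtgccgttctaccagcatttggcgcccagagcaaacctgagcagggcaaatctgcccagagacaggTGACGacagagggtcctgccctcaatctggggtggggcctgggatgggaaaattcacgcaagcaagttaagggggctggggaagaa

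All 3 elements were matched in the windows of B2m, H2-K1, H2-D1 and H2-Aa. Of the 32851 windows of this length in the table, 17.8% held TGACG, 33.8% held ATTGG, 21.3% held AANNGAAA and 1.08% held all 3. In B2m, H2-K1 and H2-D1 the first base of TGACG lay 25 bases before the first base of ATTGG, a spacing found in 0.0913% of all windows, and in H2-Aa it lay 26 bases before, found in 0.0609%. This spacing was noticed after the sequences had been seen. The Tap1 window held TGACG, 86 bases before the start, and a CCAAT 222 bases before it, and it lacked AANNGAAA. Tap1 starts 226 bases from Psmb9, an immunoproteasome subunit gene that runs the other way, so this window is shared by both genes. The Tapbp and H2-Eb1 windows held ATTGG only. The H2-K1 and H2-D1 windows share a run of 47 identical bases. A match of letters is a description and shows no binding.

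The values are probe set signals, quantile-normalised over the 5 arrays and given with a small offset of 1.53 signal units, and they compare arrays for 1 probe set, never 1 probe set with another. Before scaling, the trimmed mean signal was 105 and 106 on the 48 h arrays with IL-21 and 65.3 to 75.4 on the other 3 arrays, and every direction is relative to that of most probe sets. Of the 20 member probe sets, 17 passed the filter on low signal that 7453 of all 12422 passed. The 3 that did not pass were 1 each for H2-D1, Tap1 and H2-Aa, and they are given by value and not tested. Of the class I probe sets, 7 are of the array maker's _f_at type, whose probes fit a family of related sequences, and 3 are annotated jointly to other class I genes, so signal from H2-K1, H2-D1 and the H2-Q genes cannot be fully separated. All 10 CD8 T cell markers on the array passed the filter, and their summed signal was 7231 to 12588.5. Of the B cell markers 7 of 12 also passed, and of the dendritic cell and macrophage markers 11 of 21. Passing the filter therefore does not measure how pure the cells were. Fewer cells of a type and less RNA per cell cannot be told apart in such bulk samples.

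With IL-21 at 48 h, the means of B2m and of the brightest H2-K1 and H2-D1 probe sets differed by at most 0.07 on the log2 scale. The second bright H2-D1 probe set differed by -0.09, and the bright joint H2-K1 and H2-D1 probe set by -0.23 ± 0.21 (log2, SE). The tested probe sets of the transporter and tapasin genes differed by at most 0.21 on the log2 scale, and the 4 class II probe sets all had lower means with IL-21, by 0.24 to 1.07 on the log2 scale. None of the 17 tested member probe sets passed limma's test at an adjusted p of 0.05, and 0% of all 7453 did. At an unadjusted p of 0.05 in limma, 0 of the 17 members and 4.39% of all probe sets passed. The member adjusted p-values in limma ran from 0.967 to 0.998.

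B2m had a signal of 2372 and 1338 on the 48 h arrays without IL-21, 2117 and 1544 with IL-21, and 1665 at 72 h. The IL-21 arrays lay between the arrays without it, and the 72 h array lay between the IL-21 arrays. The difference with IL-21 at 48 h was 0.02 ± 0.29 on the log2 scale (SE, 2 and 2 arrays), with a 95% interval from -0.68 to 0.72. That interval leaves room for a change of either sign.

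The brightest H2-K1 probe set read 2633 and 2221 without IL-21, 2515 and 2117 with it, and 2158 at 72 h. The pairs overlapped, with a difference of -0.07 ± 0.13 (log2, SE), and its 95% interval, from -0.39 to 0.25, was the narrowest among the tested members. A second H2-K1 family probe set read 355 and 278, then 378 and 282, and 341 at 72 h, again with overlapping groups. The H2-K1 probe set with no family suffix went another way, at 33.1 and 26.9 without IL-21, 20.4 and 23.7 with it, and 21.3 at 72 h. Here the IL-21 arrays were both below the others, by 0.44 ± 0.30, and limma's adjusted p was 0.970. Another, annotated jointly with H2-Q genes, was dim at 15.97, 26.1, 30.4, 18.0 and 30.1 on the arrays in the same order, and its groups overlapped.

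H2-D1, the other classical heavy chain of this strain, read 2711 and 1890.3 without IL-21, 2588 and 1986 with it, and 2633 at 72 h on its brightest probe set. The means at 48 h were apart by 0.0022 ± 0.20 (log2, SE), while the arrays of each group lay further apart than that. Its second bright probe set read 2389, 1804, 2381, 1602 and 1971 in the same order, with overlap at 48 h and the 72 h array in between. A dimmer one read 109, 74.4, 91.6, 66.5 and 94.5, again with overlap. The probe set annotated jointly to H2-K1, H2-D1 and other class I genes read 1618, 1218, 1428, 1002 and 1518, and a joint probe set below the filter read 12.2, 3.12, 7.03, 10.9 and 13.0. In all 5 of these the 48 h groups overlapped.

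Tap1, a chain of the peptide transporter, read 779.6 and 450.4 without IL-21, 748 and 353 with it, and 859 at 72 h. The lower array of each 48 h group stood far from the higher one, and the difference with IL-21, -0.21 ± 0.40 (log2, SE), was smaller than that gap. A Tap1 probe set below the filter read 12.7, 11.6, 4.74, 2.92 and 6.84, lower on both IL-21 arrays at 48 h. Tap2, the partner chain, was the steadiest of the class I members at 48 h, with 94.5 and 86.7 without IL-21 and 85.2 and 82.6 with it. Its IL-21 arrays were both lower, by 0.11 ± 0.18, and its 95% interval ran from -0.54 to 0.32.

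Tapbp, which encodes tapasin, read 448 and 202 without IL-21, 424 and 221 with it, and 696 at 72 h on its brightest probe set. The 48 h groups overlapped, as they did on its other probe sets, which read 192, 137, 194, 110.1 and 297 in the first case and 94.3, 76.9, 116, 76.4 and 112 in the second. The differences with IL-21 were 0.03 ± 0.45, -0.15 ± 0.31 and 0.15 ± 0.26 (log2, SE).

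**Figure D1:**
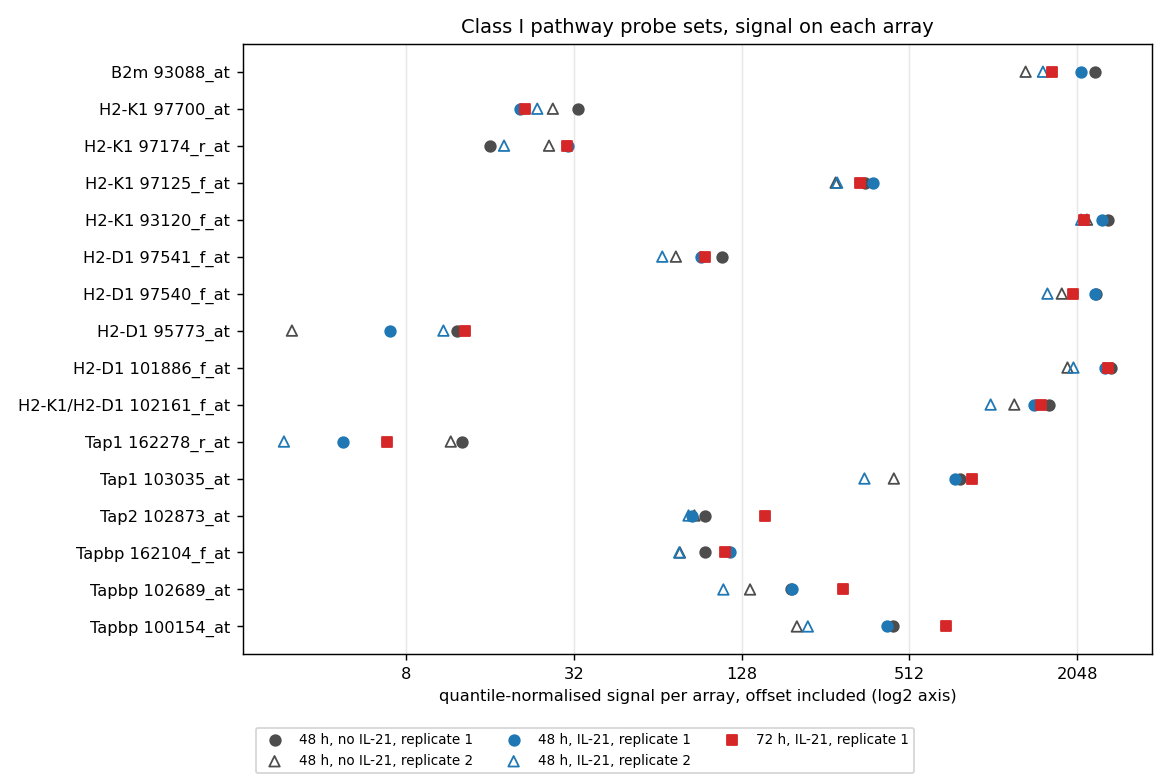
Quantile-normalised signal (log2 axis, offset included) of the 16 class I probe sets on each of the 5 arrays, with filled circles for replicate 1 and open triangles for replicate 2 at 48 h (grey without IL-21, blue with it) and red squares for the single 72 h array. For B2m the IL-21 arrays (2117 and 1544) lie inside the range without IL-21 (2372 and 1338), while for Tap2 the 72 h array (156) lies to the right of all 48 h arrays.

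H2-Ab1, the beta chain of I-A, read 72.1 and 67.8 without IL-21 and 60.2 and 58.1 with it at 48 h. Its IL-21 arrays were both lower, by 0.24 ± 0.18 (log2, SE), with a 95% interval from -0.69 to 0.21. H2-Aa, the alpha chain, was below the filter at 6.01 and 4.23 without IL-21 and 4.18 and 3.69 with it. H2-Eb1 read 44.1 and 58.5 without IL-21 and 41.5 and 14.03 with it, a difference of -1.07 ± 0.53. That value rested on the second IL-21 array: without it the difference was -0.28, and without the first it was -1.86. Cd74, the invariant chain, read 156 and 64.8 without IL-21 and 97.3 and 42.0 with it, a difference of -0.65 ± 0.54 with overlapping groups. H2-Ea itself, whose gene is defective in this strain, read 4.0 to 7.8 on the 5 arrays.

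The 48 h groups did not overlap for 6 of the 20 member probe sets, all with the IL-21 arrays lower, where 33.4% of all probe sets did not overlap (17.5% lower, 15.9% higher). These were Tap2, H2-Ab1, H2-Eb1, H2-Aa, the H2-K1 probe set with no family suffix and the dim Tap1 probe set. The median difference at 48 h was -0.08 over the 16 class I probe sets (7 positive, 9 negative) and -0.51 over the 4 class II probe sets (0 positive, 4 negative), beside -0.01 over all probe sets. Relative direction depended on the scaling: unscaled, the class I median was 0.55 and that of all probe sets 0.51, and scaled on the hybridisation control transcripts they were -0.46 and -0.39. The class II median was below that of all probe sets under both. It was -0.15 without the first array without IL-21 and -0.85 without the first array with it, and the class I median ran from -0.39 to 0.20 with 1 array left out.

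Within each 48 h group, most members differed between the arrays in the same way. Replicate 1 read above replicate 2 in both groups for 13 of the 16 class I probe sets and 3 of the 4 class II probe sets, against 29.4% of all probe sets. It was below in both for 0 members, against 28.2%. Cd74 was 1.27 higher on replicate 1 without IL-21 and 1.21 higher with it, on the log2 scale. The brightest Tapbp probe set was 1.15 and 0.94 higher, Tap1 0.79 and 1.08 higher, and B2m 0.83 and 0.46 higher. Each of these gaps was larger than the mean difference with IL-21 in the same probe set. Between arrays of equal number, IL-21 minus none was -0.68 (replicate 1) and -0.63 (replicate 2) for Cd74. It was -0.08 and 0.13 for that Tapbp probe set, -0.06 and -0.35 for Tap1, and -0.16 and 0.21 for B2m. At least 1.5-fold in both groups was reached by 3 members, Tap1, Tapbp and Cd74, by 3.71% of all probe sets and by 2.67% of those that passed the filter.

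Tap2 and H2-Ab1 were exceptions in size, with gaps of 0.12 and 0.04 for Tap2 and 0.09 and 0.05 for H2-Ab1. H2-Eb1 was an exception in direction, lower on replicate 1 without IL-21 and higher with it. Several of these class I probe sets share sequence, so they are not independent, and the labels do not say that a number marks a shared culture or day. The count of 13 class I probe sets was 11 to 14 under the other scalings, and that of 3 class II probe sets was 2 or 3. The share of all probe sets was then 20.6% (centred on medians) to 41.7% (unscaled). The summed signal of 12 B cell markers (offset removed) was 816 on replicate 1 and 561 on replicate 2 without IL-21, and 789 and 622 with it. That gap lay in Ighm: without it, a choice made after the values were seen, the sums were 258 and 267, and 231 and 224. Of the 12 genes, 4 were higher on replicate 1 in both groups and 2 lower in both.

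The sum of 10 CD8 T cell markers was lower on replicate 1, at 7231 and 9390.1 without IL-21 and 8529 and 12166.5 with it. Much of that gap was Gzmb, an effector gene, and without it the sums were 5888 and 6169, and 6092 and 6763, with 1 of the 10 genes higher on replicate 1 in both groups and 6 lower in both. The dendritic cell and macrophage sum was 1016.7 and 1105, and 1151 and 1201. Without Batf3 it was higher on replicate 1 in both groups, at 504 and 442, and 542 and 451, and 10 of the 21 genes were higher there in both and 4 lower in both. The part of these markers in the gaps of the members was not tested.

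**Figure D2:**
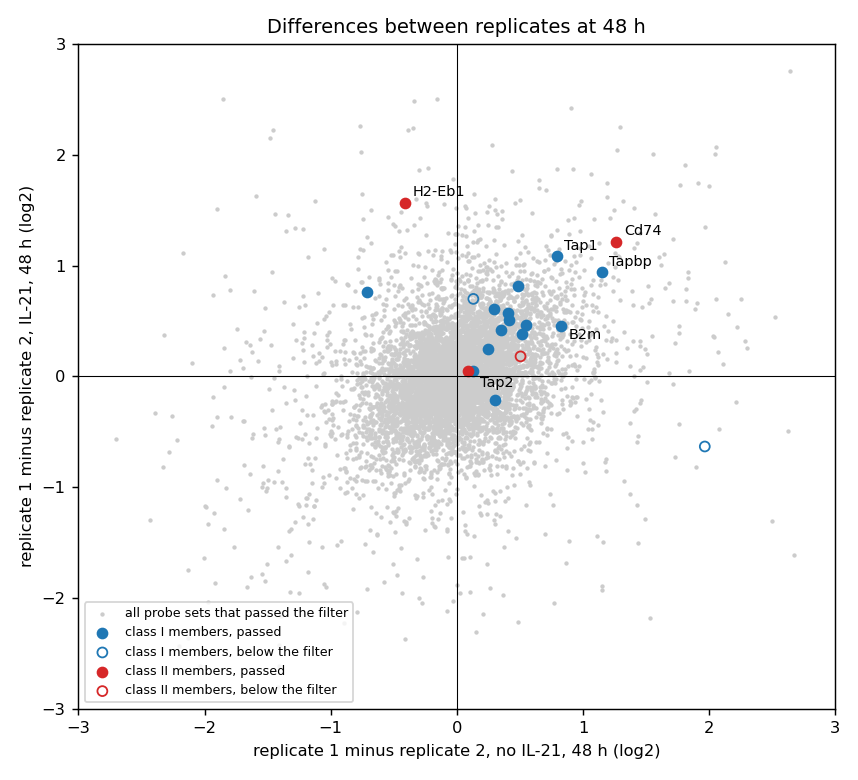
Log2 signal of replicate 1 minus replicate 2 at 48 h, without IL-21 (horizontal) and with IL-21 (vertical), for all 7453 probe sets that passed the filter (grey, of which 14 lie outside the axes) and for the members (blue class I, red class II, open symbols below the filter). Tap1, Tapbp, Cd74 and B2m lie in the upper right, and Tap2 and H2-Ab1 (red, unlabelled, beside Tap2) lie near the centre.

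At 72 h with IL-21, Tap2, H2-Ab1, the brighter Tap1 probe set and 2 of the 3 Tapbp probe sets lay above every 48 h array, while the heavy chains and B2m stayed within or close to their 48 h range. The share of all probe sets above every 48 h array was not counted, and 36% lay above both 48 h arrays with IL-21. Among the members only H2-Ab1 passed the test, 2.36-fold higher than at 48 h with IL-21. The differences of Cd74, H2-Eb1 and H2-Aa were negative and did not pass or were not tested, and on control transcripts those of Cd74 and H2-Aa were 0.015 and 0.097. Of 17 tested members 1 was called in limma, beside 11.2% of all 7453 probe sets (4.04% higher, 7.12% lower). That split moved with the scaling, from 101 higher and 2027 lower unscaled through 122 and 552 with arrays centred on their medians and 301 and 531 as reported to 655 and 251 with control transcripts. The 72 h group is 1 array, and its spread is assumed to be that of the 48 h groups.

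H2-Ab1 read 139.7 at 72 h against 60.2 and 58.1 at 48 h with IL-21 and 72.1 and 67.8 without it. The difference from 48 h with IL-21 was 1.24 ± 0.23 (log2, SE, 1 and 2 arrays), with an adjusted p in limma of 0.0256. It was positive in every setting tried. The call was lost without any 1 of the 4 arrays at 48 h, where limma's adjusted p was 0.0608 to 0.0983, and with 3 other settings given in the closing section.

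The other class II members showed no such rise. H2-Eb1 read 14.1 at 72 h, close to the lower 48 h array with IL-21 (14.03) and below the other (41.5), a difference of -0.78 ± 0.65 (log2, SE). Cd74 read 49.6, between the IL-21 arrays at 48 h (97.3 and 42.0), with a difference of -0.37 ± 0.66. H2-Aa, whose product pairs with that of H2-Ab1, was below the filter and read 3.39, under all 48 h arrays. As probe sets are not compared with each other, this low signal does not show how much H2-Aa transcript there was beside H2-Ab1.

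**Figure D3:**
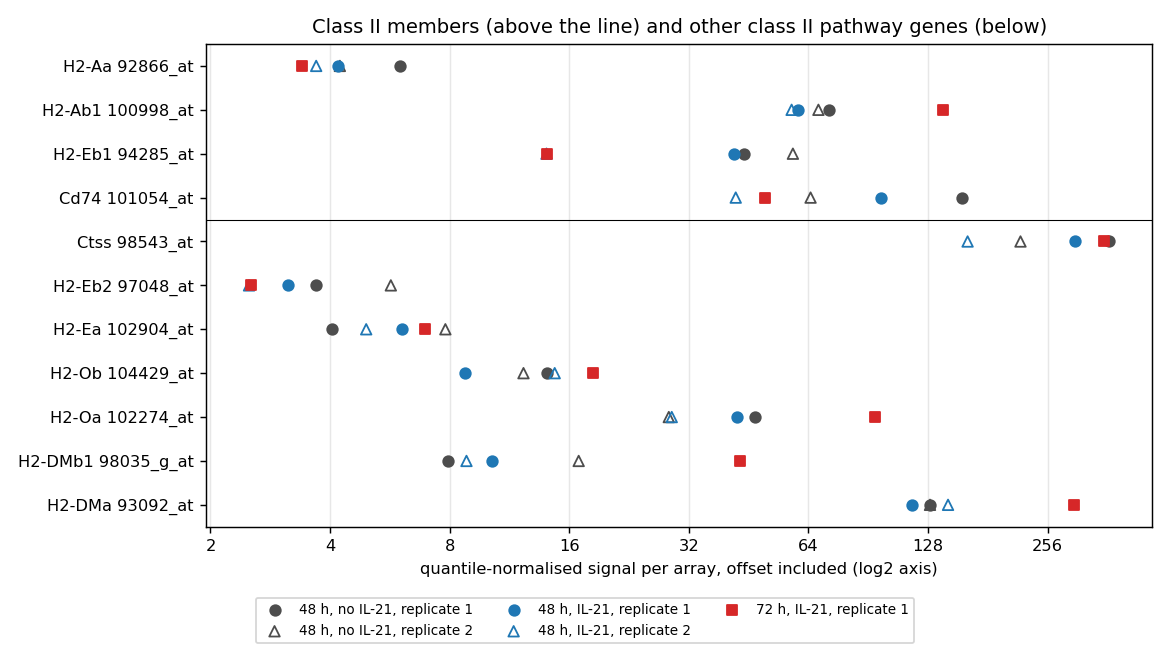
Quantile-normalised signal (log2 axis, offset included) of the 4 class II members (above the line) and of 7 other genes of class II loading, processing and the class II region (below it) on each array, with symbols for group and replicate as given in the key. The 72 h array (red squares) lies to the right of all 48 h arrays for H2-Ab1, H2-DMa, H2-DMb1, H2-Oa and H2-Ob. It does not for H2-Eb1, Cd74, H2-Aa, Ctss, H2-Ea or H2-Eb2. The listed genes on the array that are not plotted are Ctsl, Ctsz, Ifi30, Lgmn and Ctsh, lower at 72 h than at 48 h with IL-21, and H2-DMb2, Ctsb and Ctsd, higher.

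Tap2 read 156 at 72 h against 85.2 and 82.6 at 48 h with IL-21 and 94.5 and 86.7 without it. The difference was 0.89 ± 0.21 (log2, SE), with an adjusted p in limma of 0.0513, just above the threshold. Tapbp read 696 at 72 h on its brightest probe set, 1.18 ± 0.55 above the 48 h mean, and 297 on the next, 1.02 ± 0.38 above, with adjusted p-values in limma of 0.229 and 0.154. Tap1 read 859, 0.74 ± 0.49 above the 48 h mean. For these last genes the size depended on the 48 h array: Tap1 was 0.20 above the first IL-21 array and 1.28 above the second, and Tapbp 0.71 and 1.65. Tap2, whose 48 h arrays lay close together, was 0.87 and 0.92 above them.

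The heavy chains and B2m showed smaller differences at 72 h. B2m (1665) and the brightest H2-K1 probe set (2158) lay between the 48 h arrays with IL-21, with differences of -0.12 ± 0.35 and -0.10 ± 0.16 (log2, SE). The brightest H2-D1 probe set (2633) lay above both, by 0.22 ± 0.25, and within the range of the arrays without IL-21. The third Tapbp probe set, of the family type, read 112 and lay between the 48 h arrays with IL-21, unlike the other Tapbp probe sets. At an unadjusted p of 0.05 in limma, 3 of the 17 tested members passed (Tap2, the middle Tapbp probe set and H2-Ab1), against 27.3% of all probe sets.

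The 72 h array lay above both 48 h arrays with IL-21 for 9 of 16 class I and 1 of 4 class II probe sets, where 36% of all probe sets did, and below both only for H2-Aa, where 38.7% did (74.7% either way). The median difference was 0.31 over the class I probe sets (13 positive, 3 negative) and -0.29 over the class II probe sets (1 positive, 3 negative), beside -0.01 over all probe sets. The 72 h array is labelled replicate 1, and against replicate 1 at 48 h alone the class I median was 0.05, against replicate 2 alone 0.53. For class II these were -0.64 and 0.12, and against both it was 0.056 on control transcripts. Unscaled, the medians against both were -0.20 for class I and -0.45 for all probe sets, and with control transcripts 0.72 and 0.30. Class I thus stayed above the bulk under these scalings, while the sign of its median flipped without scaling.

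**Figure D4:**
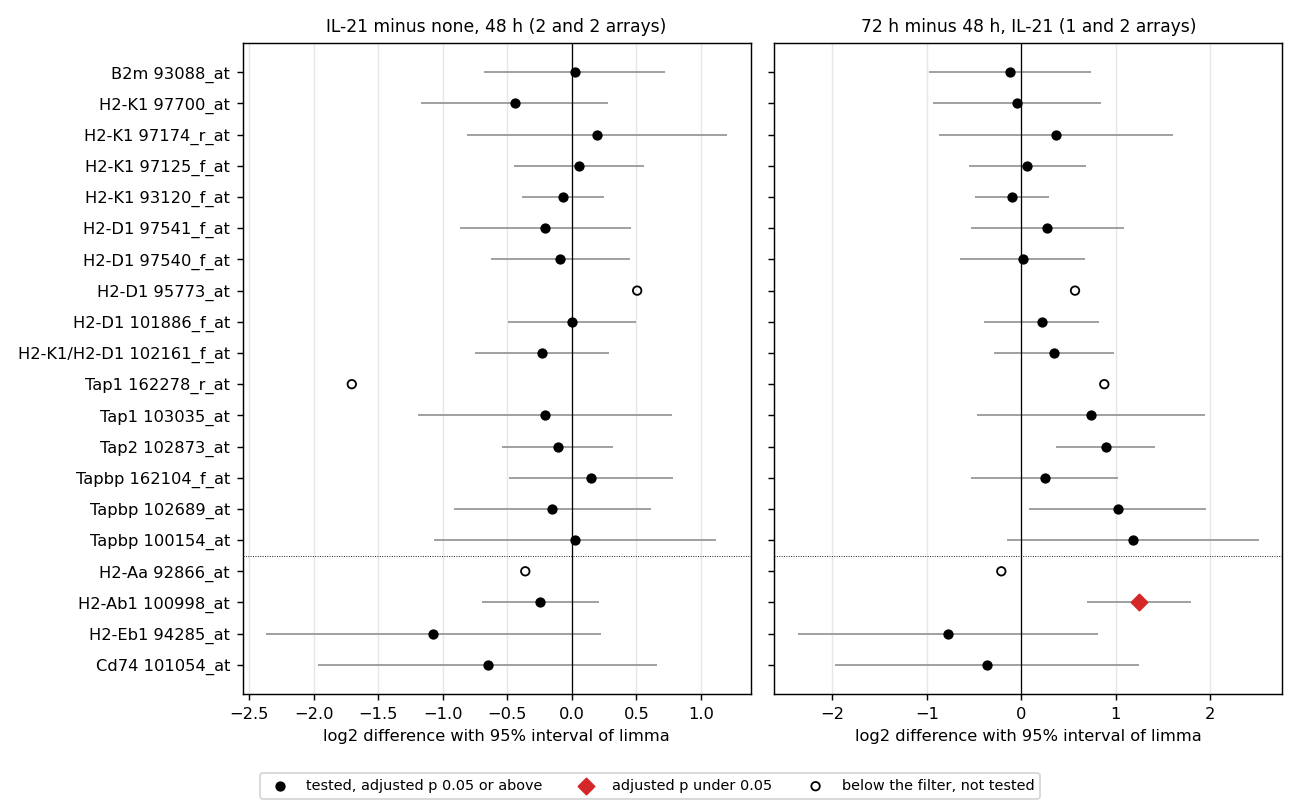
Log2 differences of the 20 member probe sets for IL-21 minus none at 48 h (left) and 72 h minus 48 h with IL-21 (right), with 95% intervals from limma; open circles are below the filter and have none, and the dotted line separates class I (above) from class II (below). On the left all intervals cross 0, and on the right those of Tap2, the middle Tapbp probe set and H2-Ab1 do not, of which only H2-Ab1 (red diamond) had an adjusted p under 0.05.

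**Figure D5:**
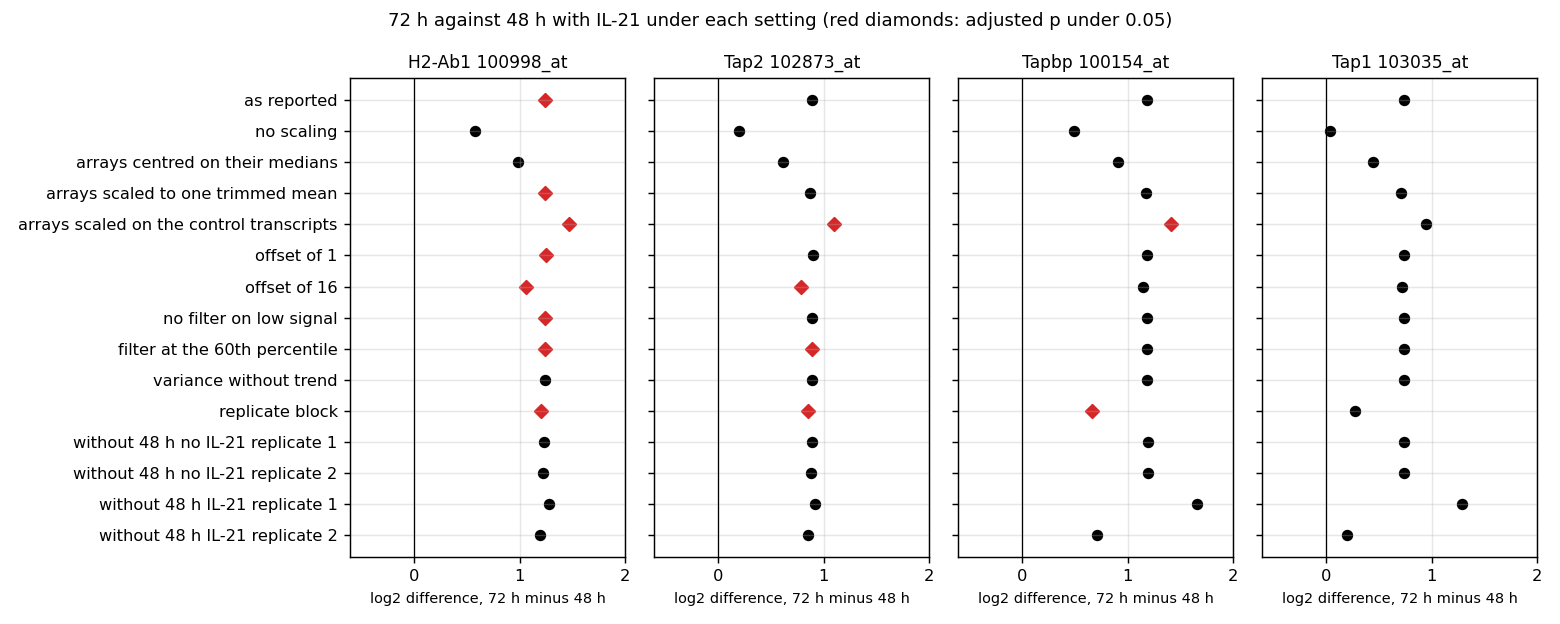
Log2 difference of 72 h minus 48 h with IL-21 for H2-Ab1, Tap2, the brightest Tapbp and the brighter Tap1 probe set under the reported setting and 14 others, with red diamonds where the adjusted p was under 0.05. All points lie to the right of 0, and Tapbp and Tap1 shift with the 48 h array that is left out.

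Among the other genes of class I processing and loading, the array held 20 of 24 listed, of which 18 passed. In limma 0 were called at 48 h, and at 72 h 0 were called higher and 4 lower, beside the 11.2% of all probe sets called. The 4 were Hspa5, an endoplasmic reticulum chaperone (-1.24 on the log2 scale, limma adjusted p 0.0158), the peptidases Ide (-1.30) and Thop1 (-1.37), and Psme3, a proteasome activator (-0.996). The inducible proteasome subunits, chosen after their values were seen, had positive differences at 72 h that did not pass: 0.85 for Psmb9, 0.54 for Psmb10 and 0.49 for Psmb8. As with H2-Ab1, every list call at 72 h given here and in what follows ended without the variance trend and without the first or the second 48 h array with IL-21, where limma called 0 of all probe sets (1843, 1703 and 1748 at an unadjusted p of 0.05). The median of the list was -0.10 at 48 h and 0.03 at 72 h. The genes with the smallest p at 48 h were Hspa5 (0.42), Pdia3 (-0.26), Psme3 (-0.26) and Sec61a1 (-0.14).

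Of 21 other class I and class I-like genes, 9 were on the array and 4 passed. H2-Q10, a class I gene known as secreted from liver, read 57.8 and 72.4 without IL-21, 43.0 and 51.6 with it, and 154.6 at 72 h. It lay above all 48 h arrays at 72 h and was called, 1.71 ± 0.27 higher (log2, SE; limma adjusted p 0.0191). This rests on 1 probe set, and signal from related class I genes cannot be fully separated from it. The dim member probe set annotated jointly to H2-K1, H2-Q10 and other H2-Q genes read 30.1 at 72 h, between the 48 h arrays with IL-21 (30.4 and 18.0). The other 3 were not called: H2-Q4 (0.45), H2-M2 (0.22) and H2-M3 (-0.31). At 48 h H2-Q10 had a difference of -0.46, H2-M3 0.14, H2-M2 -0.09 and H2-Q4 -0.01, and the list's medians were -0.12 at 48 h and 0.35 at 72 h.

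Among genes of class II processing and loading, 15 of 18 were on the array and 10 passed, with 0 called at 48 h and 2 called higher at 72 h. H2-DMa, a chain of the H2-DM molecule that exchanges class II peptides, read 129.4 and 129.5 without IL-21, 117 and 144 with it, and 297 at 72 h, a rise of 1.20 ± 0.22 (log2, SE; limma adjusted p 0.0256). Ctsd, a lysosomal protease, rose by 1.16 (limma adjusted p 0.0184). H2-Oa, a chain of the modulator of H2-DM, had a difference of 1.43 (limma adjusted p 0.0825). H2-DMb1, the partner of H2-DMa, read 7.93 and 16.9 without IL-21, 10.2 and 8.82 with it, and 43.0 at 72 h. It passed the filter only through the 72 h array, so its difference of 2.18 is given as a value. Of the 15 genes, 9 had positive and 6 negative differences at 72 h. The negative ones were Ctsl (-0.98), Ctsz (-0.51) and Ifi30 (-0.44), which did not pass, and Lgmn (-1.03), Ctsh (-0.80) and H2-Eb2 (-0.14), below the filter. The list's medians were -0.21 at 48 h and 0.62 at 72 h. At 48 h the smallest p-values belonged to Ifi30 (-0.26), Ctss (-0.37), Ctsl (-0.33) and H2-DMb1 (-0.29).

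Of 20 genes of transcriptional control, 14 were on the array and 13 passed, with 0 called at 48 h and 2 called higher at 72 h. These were Ifngr1, a chain of the interferon gamma receptor (1.74 on the log2 scale, limma adjusted p 0.0180), and Jak1, a kinase that acts with it (0.88, limma adjusted p 0.0336). Irf1, an interferon-induced regulator of class I genes, had a difference of 0.62 and Nfyc, a subunit of the CCAAT-binding factor, -0.35, and neither passed. Ciita, the class II coactivator, read 24.1 and 27.2 without IL-21, 20.1 and 19.7 with it, and 18.2 at 72 h. Its difference between 72 h and 48 h with IL-21 was -0.13 ± 0.37 (log2, SE), which leaves room for either sign. The part of Ciita in the difference of H2-Ab1 was not tested. At 48 h the named genes were Nfyb (-0.45), Ifngr1 (-0.49), Jak2 (-0.47) and Nfya (0.35). The list's medians were -0.22 at 48 h and 0.11 at 72 h.

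Markers of cells that are known to make class II molecules were set beside the class II values. Counts of markers above or below all 48 h arrays have no share of all probe sets beside them, as that share was not counted. Of 14 B cell markers 12 were on the array and 7 passed, and the summed signal of the 12 was 561 to 816 without IL-21, 622 to 789 with it, and 1259 at 72 h. Most of that sum was Ighm, at 868 at 72 h and 295 to 560.0 at 48 h, and without it the sum was 393 at 72 h and 224 to 267 at 48 h. At 72 h 4 of the 12 lay above all 48 h arrays (Ighm, Cd37, Cd79b and Fcer2a), 2 below all (Spib and Cd22) and 6 within their range. Spib read 10.4 at 72 h and 25.7 to 45.8 at 48 h, and Cd22, below the filter, 3.51 and 3.76 to 4.84. Cd79b read 33.6 at 72 h and 7.06 to 29.8 at 48 h, and Fcer2a, below the filter, 10.6 and 4.30 to 6.81. Ms4a1, which encodes CD20, read 17.7 and 15.3 to 27.7, and Cd79a 17.7 and 12.9 to 34.4. Cd37, a tetraspanin of B cells that T cells also make, was the only one called, 1.64 higher at 72 h. Of 24 dendritic cell and macrophage markers 21 were on the array and 11 passed, with sums of 1016.7 to 1201 at 48 h and 985 at 72 h. Without Batf3 the sum was highest at 72 h, at 679 against 442 to 542. At 72 h 7 of the 21 lay above all 48 h arrays, 4 below all and 10 within their range. Among those above were Itgax, which encodes CD11c, at 41.3 against 12.7 to 23.8, and Cd68, at 55.4 against 17.8 to 25.3, and neither passed the test. Those below were Batf3, Cd14, Csf1r and Spi1. Cd14 read 38.1 against 47.3 to 60.6, and Csf1r 15.9 against 18.7 to 37.2. Spi1, below the filter, read 5.99 against 7.17 to 16.1. Fscn1 was called higher at 72 h and Batf3, which activated T cells can also make, lower, and Itgam, Lyz2, Adgre1, Tyrobp and Fcer1g were below the filter.

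The offset keeps every normalised value above 0, so a value above 0 does not show that a marker was detected. The CD4 T cell markers (3 of 4 on the array, 1 passed) summed to 18.2 to 22.7 at 48 h and 40.7 at 72 h. That gap lay in Cd4: without it the sums were 7.07 to 10.3 at 48 h and 9.59 at 72 h. The NK cell markers (3 of 7 on the array, 0 passed) summed to 11.5 to 21.5 at 48 h and 29.2 at 72 h, and without Klra7 to 4.66 to 11.5 and 15.4. The CD8 T cell markers summed to 12588.5 at 72 h and 7231 to 12166.5 at 48 h, and without Gzmb to 8873 and 5888 to 6763. Of the 10 genes, 6 lay above all 48 h arrays at 72 h, 1 below all and 3 within their range. Against 48 h with IL-21, 7 differences were positive and 3 negative. Cd3d, Cd3g and Thy1 were called higher, and Cd8a (-0.51), Cd5 (-0.52) and Cd2 (-0.18) were lower and not called. The part of other cells in the difference of H2-Ab1 was not tested.

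The mean profile of the 14 class I probe sets that passed was most like Glb1, which encodes lysosomal beta-galactosidase, with a Pearson r of 0.997 over the 5 arrays, then Syce2 (0.996) and Adam11 (0.993). Glb1 read 89.6 and 72.9 without IL-21, 89.1 and 66.6 with it, and 96.2 at 72 h, high on replicate 1 and at 72 h and low on replicate 2. The class II profile, of 3 probe sets that differed among themselves, was most like Alppl2 (0.996), Furin (0.993) and Atp5c1 (0.991). Over 5 points such values are easily reached: 73 of 6693 candidate probe sets had an r above 0.95 with the class I profile and 39 with the class II profile.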

How the data were processed

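Each sample was hybridised to 1 Affymetrix MG-U74Av2 array, and groups follow the sample titles. The authors deposited probe set intensity values on a linear scale, which the submitters' processing notes credit to MAS5. The notes used here state no version, scaling target or detection calls. Array means differ, so each deposited intensity also carries its array's overall signal.

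Gene names came from platform annotation, updated through Entrez identifiers to GRCm38.p6 symbols (10817 of 10833 singly named probe sets matched; 396 had several names and 1193 were unnamed here). To each value 1.53 (the 10th percentile) was added, log2 taken and the 12422 probe sets that were not controls quantile-normalised, which removes any shift that all genes share. Probe sets with a mean log2 value above the 40th percentile (7453, with 4969 removed) entered limma 3.58.1 (R 4.3.3): means of 3 groups over 5 arrays, 2 residual degrees of freedom, empirical Bayes with a trend, two-sided, Benjamini-Hochberg at 0.05. The code was tested on simulated data.

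Members and lists were chosen with earlier results of these data known. All members are named. Of each pathway list, counts are given with up to 4 genes of smallest p per comparison, and each gene is its probe set of highest mean. For likeness, the 3 singly named probe sets with the highest r to a class's mean centred profile are named. Replicate numbers share a label only. Alternatives were the scaling, offset, filter, variance trend, replicate block and leaving out each 48 h array.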

Additional observations from a re-analysis of the deposited data

How the results depend on the processing

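With 5 arrays of unknown scaling target and 1 at 72 h, small differences of these genes could not be resolved, and MAS5 signals near background are noisy. The medians of all probe sets moved with the scaling, to 0.51 at 48 h and -0.45 at 72 h unscaled and to -0.39 and 0.30 on control transcripts. Member directions near 0 turned with it. H2-Ab1, Tap2, Tap1 and the brighter Tapbp probe sets stayed positive at 72 h in every setting. H2-Ab1 lost its call at 72 h in limma unscaled (adjusted p 0.209), with centred arrays (0.0642), without the variance trend (0.0631) and without any 48 h array (0.0608 to 0.0983). The causes were not tested.

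Unscaled at 48 h, 696 probe sets were called, all higher, the class I and class II medians were 0.55 and -0.058, and these members turned positive: H2-Ab1 0.34, H2-D1 0.53 and 0.36, H2-K1 0.57 and 0.093, the joint H2-K1 and H2-D1 probe set 0.35, Tap1 0.39, Tap2 0.46 and the middle Tapbp probe set 0.40. Unscaled at 72 h, 2128 were called (101 higher), 0 members among them, the class I median was -0.20, and these turned negative: H2-D1 -0.24, -0.49 and -0.35, H2-K1 -0.66 and -0.074, the joint probe set -0.15 and the family Tapbp probe set -0.39. With centred arrays the class I median was 0.019 and H2-K1 0.040 at 48 h, and H2-D1 -0.081 and H2-K1 -0.25 at 72 h, with 0 members called. With one trimmed mean, B2m was 0.038 and H2-K1 0.12 and 0.19 at 72 h.

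On control transcripts at 48 h, 38 probe sets were called (3 higher, 35 lower), with 1 member, H2-Eb1 (-1.50, limma adjusted p 0.0422). The class I median was -0.46, and B2m -0.38, H2-D1 -0.39, H2-K1 -0.38 and -0.19 and Tapbp -0.38 and -0.28 turned negative. At 72 h 4 members were called (H2-Ab1, Tap2 and Tapbp on 2 probe sets), the class I and class II medians were 0.72 and 0.056, and B2m 0.28, Cd74 0.015, H2-Aa 0.097 and H2-K1 0.36 and 0.41 turned positive. The stricter filter and the offset of 16 each called 2 members at 72 h, H2-Ab1 and Tap2. Without the trend 0 probe sets were called at 72 h in limma (1843 at an unadjusted p of 0.05).

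The deviations of equally numbered 48 h arrays correlated at 0.36, with only 2 pairs, so the numbers were not taken as pairing. With a replicate block, limma called 11 probe sets at 48 h and no member, and 1860 at 72 h with 5 members (H2-Ab1, Tap2, Tapbp on 2 probe sets, and Cd74 lower by 0.98). The class II median at 72 h was then -0.68, and H2-D1 -0.0098 and -0.23 and H2-K1 -0.13 turned negative.

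Leaving out each 48 h array in turn, 0 members were called at 48 h or 72 h, and 0 to 465 probe sets at 72 h. It was 0 without either IL-21 array (1703 and 1748 at an unadjusted p of 0.05 in limma), 465 without replicate 1 and 432 without replicate 2 of the arrays without IL-21. Ranges that crossed 0 at 72 h were B2m -0.34 to 0.11, Cd74 -0.95 to 0.24, H2-D1 -0.27 to 0.29, H2-Eb1 -1.54 to 0.0043, H2-K1 -0.24 to 0.029, -0.14 to 0.27, -0.014 to 0.74 and -0.15 to 0.060, Tapbp -0.056 to 0.55 and the class II median -0.62 to 0.12. At 48 h they were the class I median -0.39 to 0.20, B2m -0.39 to 0.45, H2-D1 -0.25 to 0.25, -0.37 to 0.20 and -0.48 to 0.070, the dim joint H2-D1 probe set -0.48 to 1.5, H2-K1 -0.19 to 0.063, -0.16 to 0.26 and -0.18 to 0.57, the joint probe set -0.49 to 0.029, Tap1 -0.75 to 0.34 and Tapbp -0.55 to 0.60, -0.56 to 0.26 and -0.16 to 0.44.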
